A study of Mus musculus with 20 samples.

Results

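The response to dexamethasone (Dex), a synthetic glucocorticoid, was measured by RNA sequencing in mouse bone marrow-derived macrophages that carried control siRNA and were stimulated with lipopolysaccharide (LPS), a bacterial cell wall component sensed through the receptor Tlr4. The comparison took 7 of the 20 libraries of the series by their labels: 4 from cells given 1 µM Dex together with 100 ng/ml LPS (Dex+LPS), against 3 from cells given 100 ng/ml LPS with the solvent of Dex (LPS). In all 7 the cells came from marrow of male wild-type C57BL/6J mice, were differentiated with L929 cell supernatant, carried 50 nM of the same non-targeting control siRNA for 48 h and received LPS for the last 6 h, so the reference is a transfected and LPS-activated macrophage and not a resting one. The values given are those of these 7 libraries, with further ones in 2 places: 3 with control siRNA and both solvents but no LPS (vehicle) give the unstimulated level, and 4 Dex+LPS and 3 LPS libraries with siRNA against Brg1, the chromatin remodelling ATPase encoded by Smarca4, serve to test whether the Dex response differs between the siRNAs. The spread behind the p-values was estimated over all 20 libraries, which adds 3 with Brg1 siRNA and both solvents. Whether replicates were separate mice or separate cultures is not stated, and p-values here rest on the spread among these 20 libraries, which may be technical.

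The 7 libraries held 13.85 to 18.71 M reads assigned to genes, within the range of 13.69 to 18.71 M over all 20. Values are given as normalised reads, the reads of a gene divided by the size factor of its library as deposited, which compare libraries and not genes of different length. Macrophage markers were high in all 7 libraries: Csf1r, the receptor for the growth factor of this lineage, lay between 24885 and 28828 normalised reads with Dex+LPS and between 20820 and 21468 with LPS, and the lysozyme gene Lyz2 between 137238 and 173978 with Dex+LPS and between 118779 and 135967 with LPS. Of the words of Lyz2, 32.81% are shared with other genes. Adgre1, a further macrophage marker, was lower with Dex+LPS, between 45547 and 50298, than with LPS, between 58051 and 59897. Cd68 was called lower as well, and Itgam and Mpeg1 did not pass the test. Markers of other cell types took small shares of the signal. The 13 neutrophil markers present in the table, 2 of them (Elane and Prtn3) at 0 in all 7 libraries, took 0.0061% ± 0.00046 with Dex+LPS and 0.0138% ± 0.00090 with LPS (SD, n = 4 and 3). The 7 fibroblast and endothelial markers took 0.00589% with Dex+LPS and 0.0139% with LPS. The 10 dendritic cell markers took 0.014% with Dex+LPS and 0.0181% with LPS. The 6 T and NK cell markers took 0.000246% with Dex+LPS and 0.000413% with LPS. The 4 mast cell and basophil markers took 2.27e-05% with Dex+LPS and 0.000435% with LPS. In these 5 lists all Dex+LPS libraries lay below all LPS libraries, with an exact two-sided permutation p of 0.0286 each, the smallest that 4 against 3 libraries allow. Single genes carried large parts of these sums. Csf3r of the neutrophil list averaged 432 with Dex+LPS and 2177 with LPS, and Kit of the mast cell list 2.39 with Dex+LPS and 76.8 with LPS. Itgax made up most of the dendritic cell sum, and Pdgfrb and Kdr most of the fibroblast and endothelial sum. Neutrophil markers did not move together: S100a8 and Mmp8 were called higher with Dex+LPS, and S100a9, Ltf and Csf3r lower. The part of other cell types in the Dex response was not tested. The 4 B cell markers took 0.000763% with Dex+LPS and 0.000515% with LPS (exact permutation p = 0.0571). Transcripts of the mitochondrial genome took 1.58, 1.75, 1.82 and 1.2% of the signal with Dex+LPS, against 1.2, 1.44 and 0.953% with LPS. The groups overlapped on the mitochondrial share, and it did not pass an exact two-sided permutation test (p = 0.143).

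Glucocorticoids cross the cell membrane and bind the glucocorticoid receptor, which Nr3c1 encodes and which chaperones hold ready in the cytoplasm. The bound receptor moves into the nucleus, where it raises the transcription of genes that carry its binding sites and restrains inflammatory genes driven by NF-kappaB, AP-1 and interferon regulatory factors. In macrophages it is known for lowering cytokine and prostaglandin output and for favouring the uptake of dying cells.

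Of 12061 genes tested, 2827 were higher with Dex+LPS than with LPS and 3041 were lower at a limma adjusted p under 0.05, which is 23.4% and 25.2% of the tested genes and 48.7% in all. A change of at least 1 on the log2 scale was reached by 893 of the higher genes (7.4% of those tested) and by 985 of the lower ones (8.17%). A change of at least 2 was reached by 225 genes in the higher direction (1.87%) and by 313 in the lower (2.6%). In 2663 genes (22.1%) all 4 Dex+LPS libraries lay above all 3 LPS libraries, and in 2980 genes (24.7%) all 4 lay below. The authors' deposited table calls 2740 genes higher and 3059 lower in the same comparison, and all 5596 genes called in both had the same sign. The direction of small changes depends on the scaling: the median log2 fold change over all tested genes was -0.0066 with the deposited size factors and 0.28 with plain library totals, under which 5269 genes were higher and 1647 lower. With the compared groups alone in the fit, 2216 were higher and 2515 lower.

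**Figure D1:**
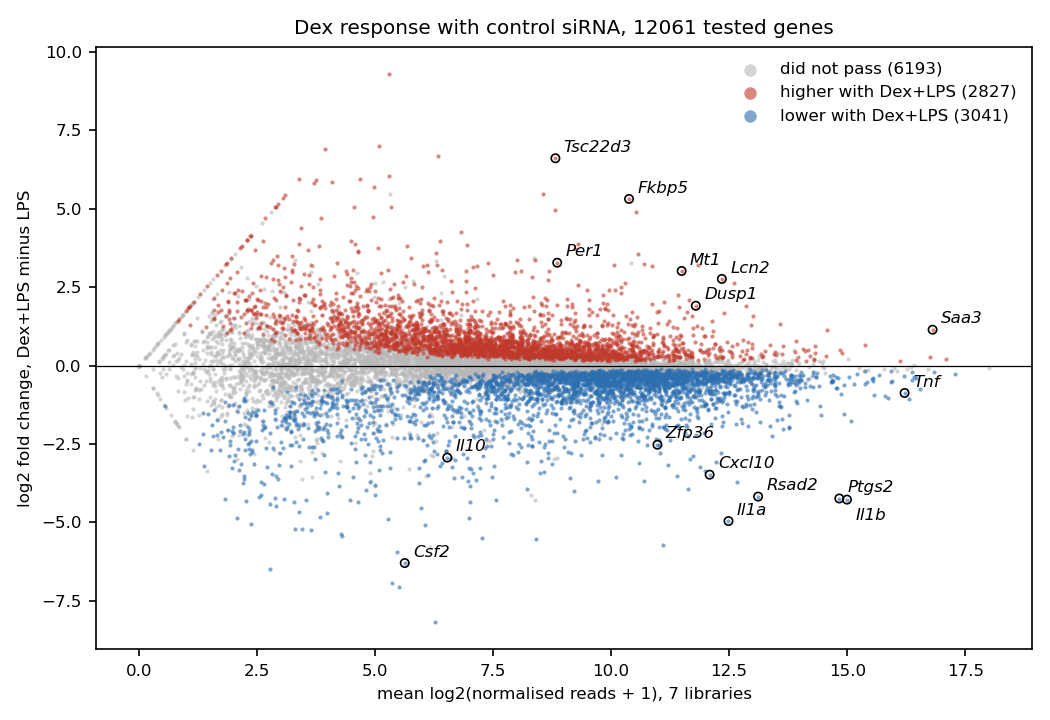
Log2 fold change (Dex+LPS minus LPS, control siRNA, vertical axis) against the mean log2 normalised reads of the 7 libraries (horizontal axis) for 12061 tested genes. Points in red (2827) and blue (3041) passed limma's adjusted p of 0.05 in the higher and lower direction and grey points did not; Tsc22d3 and Fkbp5 stand far above the line at 0, and Csf2, Il1a, Il1b and Ptgs2 far below it.

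The summed normalised signal was 3.35 M lower per library with Dex+LPS than with LPS, made of 4.49 M in genes whose mean was lower and 1.15 M in genes whose mean was higher. The 12 genes with the greatest losses held 17.2% of the first sum. They were led by Il1b, an inflammatory cytokine, at 9257 ± 1526 normalised reads with Dex+LPS and 177856 ± 11075 with LPS, and by Ptgs2, the inducible cyclooxygenase of prostaglandin synthesis, at 8407 ± 1668 with Dex+LPS and 156531 ± 5600.4 with LPS (SD, n = 4 and 3). The greatest gain was that of Saa3, an acute-phase serum amyloid gene, at 162492 ± 26447 with Dex+LPS and 73138 ± 5291 with LPS. These genes are named by the size of their change in normalised reads, after their values were seen. In bulk RNA, fewer cells of a type and less RNA per cell cannot be told apart.

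The receptor and its partners fell more often than they rose. Of 25 tested genes of the receptor, its chaperones and its coregulators, 4 rose (16%) and 10 fell (40%) with Dex+LPS, with a median log2 fold change of -0.27. Over all tested genes 23.4% rose and 25.2% fell. The direction of the list turns with the scaling: 11 rose and 5 fell with plain library totals. Nr3c1 itself had 3912, 2411, 4387 and 3720.2 normalised reads in the Dex+LPS libraries, against 5046, 5335 and 4926 in the LPS libraries. All 4 Dex+LPS values lay below all 3 LPS values, with a log2 fold change of -0.53 ± 0.13 (SE; limma adjusted p = 0.0026), and -0.24 with plain library totals, where the call was lost. Smarca4, targeted only in the other siRNA arm, was at 1966 ± 186 with Dex+LPS and 2880.0 ± 121 with LPS, a log2 fold change of -0.55, while its paralogue Smarca2 was at 150.3 ± 58.1 with Dex+LPS and 42.6 ± 6.44 with LPS, a log2 fold change of 1.73 (limma adjusted p = 1.37e-05 for Smarca4 and 0.000148 for Smarca2). Among the coactivators, Crebbp, an acetyltransferase, rose by a log2 fold change of 0.89 and Ncoa3 had one of -1.05 (limma adjusted p = 0.000111 for Crebbp and 3.32e-07 for Ncoa3). The chaperone gene Hsp90aa1 was called lower (-0.97 on the log2 scale), but 51.4% of its 31-base words also occur in transcripts of other genes, so its reads are uncertain.

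Most genes known as direct glucocorticoid targets rose. Of 34 tested genes on a list of glucocorticoid-induced genes, 22 rose and 7 fell, with a median log2 fold change of 0.85, and 22 rose and 7 fell with plain library totals too; this stands beside 23.4% higher and 25.2% lower over all tested genes. Fkbp5 encodes a co-chaperone that lowers the affinity of the receptor for its hormone. It had 6743, 5724, 6545 and 6859.7 normalised reads with Dex+LPS, against 135, 135 and 230.0 with LPS. The groups lay far apart, by a factor of 38.8 (log2 fold change 5.31 ± 0.17 SE, limma adjusted p = 2.33e-14). Tsc22d3, which encodes the anti-inflammatory leucine zipper protein GILZ, had 3023, 3355, 3126 and 3377 with Dex+LPS, against 31.6, 25.5 and 40.6 with LPS, and 948 ± 88.4 with vehicle (SD, n = 3). LPS alone had thus left it under its vehicle level, and with Dex+LPS it stood above both (log2 fold change against LPS 6.61 ± 0.12 SE, limma adjusted p = 1.65e-17).

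Further receptor targets rose by factors of differing size. Dusp1, the phosphatase that switches off MAP kinases, had 6985, 6477, 6538 and 5154 normalised reads with Dex+LPS, against 1860.2, 1706 and 1460.0 with LPS, a log2 fold change of 1.91 ± 0.13 (SE; limma adjusted p = 5.65e-10). Per1, a repressor of the circadian clock, had 1167, 1069.8, 1226 and 1483 with Dex+LPS, against 167, 112 and 106 with LPS, a log2 fold change of 3.28 ± 0.14 (limma adjusted p = 8.09e-13). In both genes the groups did not overlap. Klf9, a Krüppel-like transcription factor, averaged 667 ± 76.9 with Dex+LPS and 81.8 ± 14.3 with LPS. Zbtb16, a zinc finger transcription factor, had no read in the LPS libraries and 159 reads in the Dex+LPS libraries, which is at least 32.9-fold higher against a floor of 3 reads over the LPS group. Its mean with Dex+LPS, 35.3 ± 14.7 normalised reads, did not exceed that with vehicle, 51.9 ± 14.3. Hif3a, a hypoxia-inducible factor subunit, had 333 reads with Dex+LPS and 1 read with LPS, a ratio of 206.6 with an exact 95% counting interval of 36.8 to 8186. The kinase gene Sgk1 rose less, at 1785 ± 103 with Dex+LPS and 1059 ± 139 with LPS (log2 fold change 0.76 ± 0.11 SE, limma adjusted p = 1.28e-05).

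The metallothionein genes Mt1 and Mt2, whose products bind zinc and other metals, rose together. Mt1 had 5452, 8736, 5935 and 8792 normalised reads with Dex+LPS, against 844, 774 and 1017 with LPS, a log2 fold change of 3.01 ± 0.16 (SE; limma adjusted p = 3.21e-11). Mt2 averaged 9776 ± 2341 with Dex+LPS and 1039 ± 163 with LPS, but 57.6% of its 31-base words lie on the opposite strand of another gene's transcripts and the counted strand is not given in the sources used here. Of 14 tested genes of metallothioneins and zinc transport, these 2 were the ones that rose (14.3%), and 8 fell (57.1%). Over all tested genes 23.4% rose and 25.2% fell. With plain library totals 3 of the list rose and 3 fell. Slc39a8, a zinc importer, was among the lower ones at 97.6 ± 7.75 with Dex+LPS and 266 ± 20.0 with LPS (log2 fold change -1.44, limma adjusted p = 2.53e-09).

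The core of the glucocorticoid response element (GNACA and TGTNC with 3 free bases between them) was searched on both strands of the 250 bases before the start of each gene. Counted by gene, in any of its promoters, it was found in 9 of 2311 genes called higher (0.389%) and in 4 of 2390 called lower (0.167%). Among all tested genes with a promoter sequence it was found in 24 of 9368 (0.256%). With a change of at least 1 on the log2 scale it was found in 4 of 693 of the higher genes (0.577%) and in 3 of 739 of the lower ones (0.406%). Over all 32851 promoter sequences it was found in 0.387%, which is a share of promoters and not of genes. The groups differ by a few genes each. Among the genes named in the comparison, Mt1 and Sgk1 hold it, and their promoter stretches are shown, from RefSeq on GRCm38.p6 in the direction of transcription, with the core in capitals. That of Mt1 covers chr8:94178965-94179037 on the plus strand with the core 94 to 82 bases before the start, and that of Sgk1, which falls outside the rule for printing and was added after its values were seen, covers chr10:21993672-21993744 on the plus strand with the core 188 to 176 bases before the start.
Mt1: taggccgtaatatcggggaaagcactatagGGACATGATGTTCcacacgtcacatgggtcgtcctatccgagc
Sgk1: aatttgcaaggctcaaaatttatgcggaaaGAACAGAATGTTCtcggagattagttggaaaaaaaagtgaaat

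Not all genes known to respond to glucocorticoids rose. Zfp36, which encodes the mRNA-destabilising protein tristetraprolin, had 972, 738, 763 and 1505 normalised reads with Dex+LPS, against 5129.6, 4579 and 7057 with LPS. Nfkbia, which encodes the NF-kappaB inhibitor IκBα, had 12486, 13721, 11492 and 12936 with Dex+LPS, against 17777, 17246 and 20039 with LPS. Both are induced by LPS as well, with 722 ± 139 for Zfp36 and 787 ± 66.6 for Nfkbia with vehicle (SD, n = 3), and in both all 4 Dex+LPS values lay below all 3 LPS values. Their log2 fold changes were -2.53 ± 0.29 for Zfp36 and -0.54 ± 0.07 for Nfkbia (SE; limma adjusted p = 1.01e-06 for Zfp36 and 6.27e-06 for Nfkbia). The other listed genes that fell were Errfi1, Rgs2, Irs2, Cdkn1a and Gadd45a, with log2 fold changes of -2.12, -2.19, -1.13, -1.54 and -0.80.

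**Figure D2:**
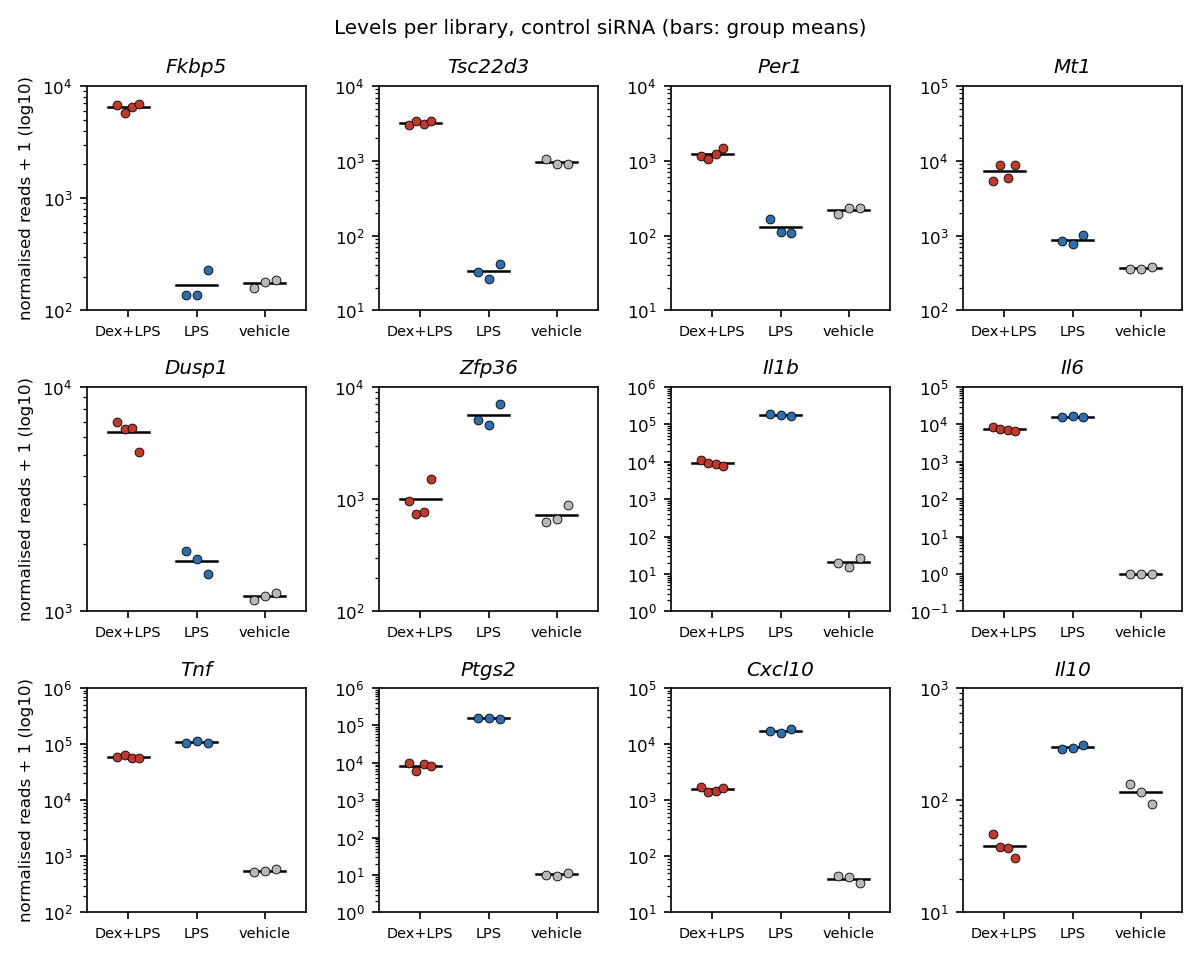
Normalised reads (log10 axis, with 1 added) in each library with control siRNA for 12 genes: points are libraries and bars are group means, with Dex+LPS (n = 4), LPS (n = 3) and vehicle (n = 3) from left to right in each panel. Fkbp5, Tsc22d3, Per1 and Mt1 stand higher with Dex+LPS than with LPS, Dusp1 by less, and Zfp36, Il1b, Il6, Tnf, Ptgs2, Cxcl10 and Il10 stand lower.

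The genes with the greatest log2 gains were mostly low or silent in the LPS libraries. Fzd4, a receptor for Wnt proteins, had 1181 reads with Dex+LPS and 3 with LPS, a ratio of 244.3 with an exact 95% counting interval of 83.4 to 1186. Vdr, the vitamin D receptor, had 416 reads with Dex+LPS and 2 with LPS, a ratio of 129.1 (35.5 to 1069), and Lyve1, a hyaluronan receptor of tissue macrophages, had 312 with Dex+LPS and 1 with LPS, a ratio of 193.6 (34.5 to 7671). Tmem63c had 518 reads and Kif20b, a mitotic kinesin, 262 reads with Dex+LPS and neither had a read with LPS, which makes them at least 107.1-fold and 54.2-fold higher against a floor of 3 reads over the group. Lifr, the receptor for leukemia inhibitory factor, was better covered, with 246, 236, 219.8 and 245 normalised reads with Dex+LPS, against 2.25, 2.31 and 3.21 with LPS (log2 fold change 6.06 ± 0.42 SE, limma adjusted p = 1.07e-09). Susd2 and Prss16 belonged to the highest genes together with Sele, described below, at log2 fold changes of 5.47 and 6.67. N4bp2l1 was named with them at 5.69 on the log2(normalised count + 1) scale, but had 0, 34.7 and 0 normalised reads in the LPS libraries. The value was 7.41 without LPS replicate 2 and 4.83 without LPS replicate 1 or 3. Its means differed by a factor of 14.6, and edgeR gave a log2 fold change of 3.94. With vehicle N4bp2l1 averaged 487 ± 7.92 normalised reads and Kif20b 110.0 ± 4.38, above their Dex+LPS means of 169 and 60.6. Fzd4, Vdr, Lyve1, Tmem63c and Lifr stood lower with vehicle than with Dex+LPS. St3gal1, a sialyltransferase gene, was passed over because its Dex+LPS values of 378, 2206, 842 and 213 normalised reads spread by more than 5 times, while all 3 LPS libraries were at 0.

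Cytokine transcripts mostly fell. Of 24 tested proinflammatory cytokines, 18 fell (75%), 5 did not pass the test and only Csf3 rose (4.17%). Over all tested genes 25.2% fell and 23.4% rose. The median log2 fold change of the list was -1.74, and with plain library totals 17 fell and 2 rose. The whole list took 0.648% ± 0.0361 of the signal with Dex+LPS, 2.13% ± 0.0795 with LPS and 0.0108% ± 0.00029 with vehicle (SD, n = 4, 3 and 3). The size of the fall differed widely between members. Il1a had 1792, 1151, 1312 and 1099 normalised reads with Dex+LPS, against 44605, 41052 and 37319.7 with LPS, a log2 fold change of -4.96 ± 0.19 (SE; limma adjusted p = 2.23e-13). Il1b had 11338, 9289, 8664 and 7737 with Dex+LPS, against 188868, 177982 and 166720.0 with LPS, a log2 fold change of -4.28 ± 0.19 (limma adjusted p = 2.01e-12). Both encode ligands of the same receptor, and their LPS means were 30.6 and 19.2 times their Dex+LPS means.

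Tnf and Il6 fell far less. Tnf, the founding member of its cytokine family, had 58808, 64253, 55569 and 56316 normalised reads with Dex+LPS, against 105469, 111627 and 105988 with LPS, a log2 fold change of -0.88 ± 0.05 (SE; limma adjusted p = 1.67e-10). Il6, a driver of the acute-phase response, had 8681, 7742, 7287 and 6526 with Dex+LPS, against 15424, 16803 and 16039 with LPS, a log2 fold change of -1.10 ± 0.12 (limma adjusted p = 5.05e-07). Csf2, the granulocyte-macrophage growth factor, showed the greatest fall of the list, with 9.06, 6.41, 6.10 and 5.36 with Dex+LPS, against 655, 620.1 and 528 with LPS (log2 fold change -6.30 ± 0.22 SE, limma adjusted p = 7.23e-14). The shared subunit Il12b and the partner subunit Il23a had log2 fold changes of -3.54 and -3.23, Inhba, an activin subunit, -5.52, and the type I interferon gene Ifnb1 -3.77 (limma adjusted p = 6.79e-07, 1.22e-09, 5.79e-10 and 2.32e-06 in that order). Csf3, the granulocyte growth factor, went the other way with 156, 191, 141 and 220.4 with Dex+LPS, against 94.7, 62.5 and 93.1 with LPS (log2 fold change 1.08, limma adjusted p = 0.000426).

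Chemokines fell alike. Of 24 tested chemokines 21 fell (87.5%) and only Ccl17 rose (4.17%), beside 25.2% and 23.4% over all tested genes. The median log2 fold change of the list was -1.88, and with plain library totals 20 fell and 2 rose. Ccl2, which attracts monocytes, had 139, 130.4, 114 and 137 normalised reads with Dex+LPS, against 1529, 1314 and 1383 with LPS (log2 fold change -3.43 ± 0.12 SE, limma adjusted p = 1.02e-13). Its neighbour Ccl7, with 13.8 ± 2.59 with Dex+LPS and 501 ± 15.5 with LPS, had the greatest fall of the list at -5.10 on the log2 scale. Ccl5, an attractant of T cells, fell less, with 21433, 28366, 20548 and 21703 with Dex+LPS, against 39054, 35986 and 37309 with LPS (log2 fold change -0.71 ± 0.09 SE, limma adjusted p = 4.18e-06). The neutrophil attractant Cxcl1 did not pass the test, at 17403 ± 1419.7 with Dex+LPS and 22433 ± 757 with LPS (limma adjusted p = 0.227). Ccl17, a ligand of Ccr4 on T cells, averaged 826 ± 141 with Dex+LPS and 218 ± 46.6 with LPS (log2 fold change 1.92, limma adjusted p = 4.34e-09), while Ccl22, a ligand of the same receptor, averaged 1472 ± 276 with Dex+LPS and 13699 ± 2044 with LPS (log2 fold change -3.23, limma adjusted p = 6.08e-12).

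Receptors of chemokines and cytokines moved in both directions, with 9 of 41 tested genes higher (22%) and 25 lower (61%), beside 23.4% and 25.2% over all tested genes. The chemokine receptor genes Ccr3 and Ccr2 had log2 fold changes of -3.27 and -2.68. Among the receptors that rose, Il1r1, the signalling receptor for Il1a and Il1b, had 32.6, 22.4, 27.5 and 22.2 normalised reads with Dex+LPS, against 9.02, 3.47 and 0 with LPS (log2 fold change 2.92 ± 0.56 SE, limma adjusted p = 0.000317). Without LPS replicates 1 and 3 its log2 value was 3.67 and 2.00. So ligand and receptor of this pathway moved in opposite directions, since Il1a and Il1b fell, and the receptor antagonist gene Il1rn was lower as well at 1494 ± 212 with Dex+LPS and 15394 ± 1014 with LPS (log2 fold change -3.37, limma adjusted p = 2.33e-14).

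**Figure D3:**
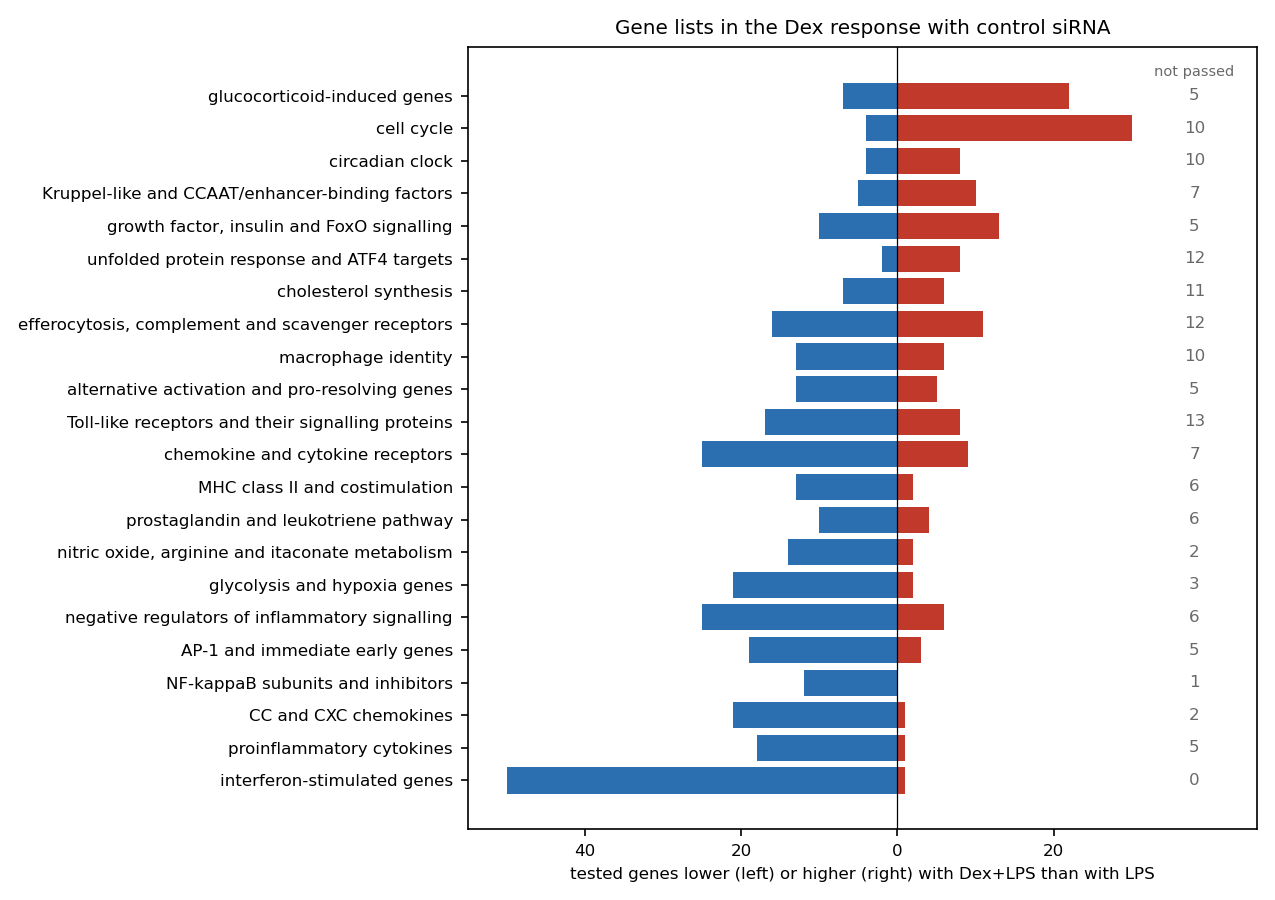
Number of tested genes in each of 22 gene lists that rose (red, to the right), fell (blue, to the left) or did not pass limma's adjusted p of 0.05 (grey, written as a number at the right edge) with Dex+LPS against LPS, control siRNA. The cytokine, chemokine, NF-kappaB and interferon lists lie almost wholly to the left, and the glucocorticoid-induced and cell cycle lists mostly to the right.

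NF-kappaB, a family of dimeric factors that inhibitors hold in the cytoplasm until LPS signals, was lower at the transcript level in nearly all of its measured subunits and inhibitors. Of 13 tested genes 12 fell (92.3%) and none rose, beside 25.2% and 23.4% over all tested genes. The median log2 fold change of the list was -0.53, and with plain library totals 8 fell and 1 rose. The subunit Rel had 2435, 1639, 2555 and 2306 normalised reads with Dex+LPS, against 4782, 5223 and 4743 with LPS, a log2 fold change of -1.16 ± 0.11 (SE; limma adjusted p = 1.23e-07). Nfkb1 and Nfkb2, which encode the precursors of further subunits, had log2 fold changes of -0.98 and -0.82, the nuclear co-regulator Bcl3 one of -0.89 and the inhibitor Tnip1 one of -0.57 (limma adjusted p = 4.63e-11, 3.47e-07, 2.68e-07 and 1.37e-05 in that order). The 10-base NF-kappaB motif (GGG and TTTCC with 2 free bases between them) was searched on both strands. It was held in any of their promoters by 2.34% of genes called lower, 1.6% of those called higher and 1.84% of all tested genes with a promoter. The stretches around it in named genes of the comparison are shown from RefSeq on GRCm38.p6 in the direction of transcription, with the motif in capitals, because these named genes fell and hold the motif. They cover chr11:114934376-114934445 for Cd300lb, a receptor for dying cells, chr2:24345290-24345359 for Il1rn, chr9:124021762-124021831 for Ccr3, chr16:97962796-97962865 for Zbtb21, a zinc finger gene, chr11:23771021-23771090 for Rel, chr5:30013040-30013109 for Il6 and chr19:46304696-46304736 for an Nfkb2 start, with the motif 44 to 35, 51 to 42, 179 to 170, 213 to 204, 91 to 82, 44 to 35 and 11 to 2 bases before the start in that order; Cd300lb, Zbtb21 and Rel lie on the minus strand and the others on the plus strand.
Cd300lb: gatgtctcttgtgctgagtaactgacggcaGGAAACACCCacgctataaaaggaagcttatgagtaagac
Il1rn: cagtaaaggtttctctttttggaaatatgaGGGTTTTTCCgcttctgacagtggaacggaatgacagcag
Ccr3: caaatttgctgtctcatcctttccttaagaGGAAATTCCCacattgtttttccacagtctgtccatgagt
Zbtb21: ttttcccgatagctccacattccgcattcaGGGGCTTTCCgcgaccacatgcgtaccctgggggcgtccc
Rel: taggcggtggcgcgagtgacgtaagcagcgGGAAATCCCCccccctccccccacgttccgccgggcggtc
Il6: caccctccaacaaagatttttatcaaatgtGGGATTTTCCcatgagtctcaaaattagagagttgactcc
Nfkb2: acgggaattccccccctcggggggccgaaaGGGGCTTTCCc

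Most tested brakes on inflammatory signalling were lower with Dex+LPS too. Of 37 tested negative regulators 25 fell (67.6%) and 6 rose (16.2%), beside 25.2% and 23.4% over all tested genes. Those that rose were Dusp1, Tsc22d3, Zfp36l1, Zfp36l2, Irak3 and Cyld. The median log2 fold change of the list was -0.69, and with plain library totals 19 fell and 9 rose. Zfp36l1 and Zfp36l2 encode relatives of tristetraprolin, and Zfp36l1 averaged 63.4 ± 9.28 with Dex+LPS and 13.4 ± 1.4 with LPS (log2 fold change 2.16, limma adjusted p = 1.22e-09). Il10, the anti-inflammatory cytokine of macrophages, had 48.9, 37.4, 36.6 and 29.8 normalised reads with Dex+LPS, against 285, 292 and 308 with LPS, a log2 fold change of -2.94 ± 0.18 (SE; limma adjusted p = 1.78e-10). Cish, an inhibitor of cytokine receptor signalling, Atf3, a repressor of inflammatory genes, and Cd274, which encodes the checkpoint ligand PD-L1, had log2 fold changes of -3.93, -3.11 and -1.75 (limma adjusted p = 1.8e-06, 3e-15 and 3.33e-11). With vehicle Il10 averaged 117 ± 24.1 and Atf3 6968 ± 182, above their Dex+LPS means of 38.2 and 612. Cish and Cd274 averaged 1.69 ± 0.826 and 807 ± 111 with vehicle, below their Dex+LPS means of 93.9 and 7016. These differences from vehicle were not tested.

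AP-1 and immediate early genes fell in 19 of 27 tested genes (70.4%) and rose in 3 (11.1%), which were Jun, Klf2 and Klf4. Over all tested genes 25.2% fell and 23.4% rose. With plain library totals 15 of the list fell and 4 rose. Jun, an AP-1 subunit, averaged 739 ± 113 normalised reads with Dex+LPS, 166 ± 41.5 with LPS and 950.3 ± 29.8 with vehicle. Klf2, which restrains macrophage activation, had 125, 192, 178 and 174 with Dex+LPS, against 16.9, 18.5 and 17.1 with LPS, a log2 fold change of 3.17 ± 0.22 (SE; limma adjusted p = 1.56e-09). Its vehicle mean was 181 ± 10.8. Klf4, a relative, averaged 743 ± 57.4 with Dex+LPS and 103 ± 4.42 with LPS (log2 fold change 2.83, limma adjusted p = 4.03e-14). Nr4a3, an orphan nuclear receptor, and Batf3, an AP-1 family member, fell by log2 fold changes of -3.65 and -2.54.

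Toll-like receptors were split. Of 38 tested receptors and signalling proteins of this pathway, 8 rose (21.1%) and 17 fell (44.7%), beside 23.4% and 25.2% over all tested genes. This split turns with plain library totals, where 13 rose and 7 fell. Tlr4, the LPS receptor itself, had 289, 227, 383 and 282 normalised reads with Dex+LPS, against 1001, 989 and 849 with LPS, a log2 fold change of -1.70 ± 0.12 (SE; limma adjusted p = 1.8e-09). Tlr13, which senses bacterial ribosomal RNA, averaged 5345 ± 599.8 with Dex+LPS and 1787 ± 96.7 with LPS (log2 fold change 1.57, limma adjusted p = 1.03e-11), and Ripk2, a kinase downstream of cytosolic peptidoglycan sensors, averaged 1779 ± 153 with Dex+LPS and 4886 ± 302 with LPS (log2 fold change -1.46, limma adjusted p = 4.3e-11). With vehicle Tlr13 averaged 9950 ± 521, above its Dex+LPS level.

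Interferon-stimulated genes fell with a single exception. Of 51 tested genes 50 fell (98%) and Ly6e rose (1.96%), beside 25.2% and 23.4% over all tested genes. The median log2 fold change of the 51 genes was -1.88, and the count was again 50 and 1 with plain library totals. Together they took 0.906% ± 0.0742 of the signal with Dex+LPS, 2.62% ± 0.0243 with LPS and 0.898% ± 0.101 with vehicle (SD, n = 4, 3 and 3). The share with Dex+LPS differed from that with vehicle by less than the spread of either group. The total signal per library was higher with Dex+LPS than with vehicle, so equal shares are not equal normalised reads. Some members named here differed from vehicle, in both directions. Cxcl10 averaged 1552 ± 172 with Dex+LPS and 38.8 ± 5.65 with vehicle, and Rsad2 2593 ± 482 and 1705 ± 231. Ifit2 averaged 2194 ± 520 with Dex+LPS and 4915.5 ± 893 with vehicle, and Stat2 1577 ± 216 and 2649 ± 334. The difference from vehicle was not tested. Rsad2, which encodes the antiviral protein viperin, had 3137, 1972, 2706 and 2559 normalised reads with Dex+LPS, against 45919, 47005 and 46163 with LPS, a log2 fold change of -4.18 ± 0.12 (SE; limma adjusted p = 1.11e-14). Cxcl10, an interferon-induced attractant of T cells, had 1743, 1374, 1443 and 1647 with Dex+LPS, against 17459, 16079 and 18337 with LPS, a log2 fold change of -3.48 ± 0.12 (limma adjusted p = 1.06e-13). Cmpk2, Ifit2 and Stat2, the last a subunit of the factor that type I interferon activates, had log2 fold changes of -3.92, -3.72 and -1.90 (limma adjusted p = 5.16e-16, 4.55e-13 and 5.02e-12). Ly6e, a surface protein of the interferon response, averaged 12791 ± 654 with Dex+LPS, 9575 ± 370.2 with LPS and 13368 ± 1993 with vehicle. Its LPS level thus lay below its vehicle level.

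Transcripts of interferon regulatory and STAT factors, listed together with their inhibitors, mostly fell as well. Of 20 tested interferon regulatory and STAT factors and their inhibitors, 15 fell (75%) and only Pias1 rose (5%). Over all tested genes 25.2% fell and 23.4% rose. The call of Pias1 was lost in 3 of 19 alternatives. Irf1, an early LPS-induced factor, had 6736, 6887, 6480.1 and 6362 normalised reads with Dex+LPS, against 13502, 14548 and 13795 with LPS, a log2 fold change of -1.08 ± 0.04 (SE; limma adjusted p = 5.45e-13). Irf8 and Irf4, which shape macrophage and dendritic cell programmes, had log2 fold changes of -2.08 and -1.64 (limma adjusted p = 5.02e-12 and 5.32e-06). The interferon response element (GAAA and GAAA with 2 free bases between them) was searched on both strands. It was held in any of their promoters by 11.1% of genes that fell by at least 1 on the log2 scale. The share was 3.32% of genes that rose by at least 1 and 3.5% of all tested genes with a promoter. Of 38 tested genes of the interferon list with a promoter, 20 hold the element (52.6%). The stretches of Rsad2, Cxcl10, Ifit1 and Isg15 are shown with the element in capitals, as genes of this list chosen after their values were seen; they cover chr12:26456533-26456602, chr5:92349063-92349132, chr19:34640755-34640843 and chr4:156200845-156200926 of GRCm38.p6 (RefSeq, in the direction of transcription, with Ifit1 on the plus strand and the others on the minus strand), and Ifit1 holds the element in 2 places and Isg15 in 3 that overlap or adjoin.
Rsad2: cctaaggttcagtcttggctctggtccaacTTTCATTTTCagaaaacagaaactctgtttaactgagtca
Cxcl10: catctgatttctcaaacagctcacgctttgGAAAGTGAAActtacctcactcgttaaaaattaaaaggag
Ifit1: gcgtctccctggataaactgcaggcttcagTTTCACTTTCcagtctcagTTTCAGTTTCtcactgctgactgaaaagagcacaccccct
Isg15: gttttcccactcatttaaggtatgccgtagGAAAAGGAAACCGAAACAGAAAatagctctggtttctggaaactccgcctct

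The effector enzymes of inflammation were lower. Ptgs2 had 9978, 6213, 9379 and 8056 normalised reads with Dex+LPS, against 159344, 160167 and 150082 with LPS, a log2 fold change of -4.24 ± 0.13 (SE; limma adjusted p = 1.92e-14). Pla2g4a, the phospholipase that frees arachidonic acid upstream of it, and Ptger4, a prostaglandin E2 receptor, had log2 fold changes of -2.32 and -2.41 (limma adjusted p = 1.01e-13 and 7.15e-11). Over the prostaglandin and leukotriene pathway 10 of 20 tested genes fell (50%) and 4 rose (20%), beside 25.2% and 23.4% over all tested genes. With plain library totals 7 of the pathway fell and 5 rose. Nos2, the inducible nitric oxide synthase, had 1879, 1642, 2006 and 2147 with Dex+LPS, against 6425, 6107 and 6449.7 with LPS, a log2 fold change of -1.73 ± 0.28 (SE; limma adjusted p = 5.19e-05). Of 18 tested genes of nitric oxide, arginine and itaconate metabolism 14 fell (77.8%) and 2 rose (11.1%), Ncf1 and Hmox1. The call of Hmox1 was lost in 8 of 19 alternatives. With plain library totals 9 of this list fell and 3 rose. The list took 2.14% ± 0.0958 of the signal with Dex+LPS and 1.94% ± 0.0312 with LPS (SD, n = 4 and 3; exact permutation p = 0.0571). The total signal was lower with Dex+LPS, so the larger share need not mean more normalised reads. Ncf1, an NADPH oxidase subunit, had one of the greater gains in normalised reads, at 33857 ± 1109 with Dex+LPS and 15608 ± 566 with LPS.

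Matrix proteases and serpins fell in 19 of 27 tested genes (70.4%) and rose in 4 (14.8%), beside 25.2% and 23.4% over all tested genes. The collagenase gene Mmp13 had 468, 332, 432 and 364 normalised reads with Dex+LPS, against 23037, 20857 and 19488 with LPS, a log2 fold change of -5.73 ± 0.13 (SE; limma adjusted p = 8.11e-16). Serpinb2, a plasminogen activator inhibitor, averaged 29.3 ± 4.55 with Dex+LPS and 1363 ± 85.5 with LPS, a log2 fold change of -5.50, with 11.2% of its 31-base words shared with other genes. Timp1, an inhibitor of metalloproteinases, and Plat, a plasminogen activator, had log2 fold changes of -3.55 and -3.30. Outside the lists, the strongest falls included the potassium channel Kcna3 at -5.38, the glycosyltransferase B3gnt7 at -5.43 and Macc1, which had no read with Dex+LPS and 240 with LPS, so that it was at least 128.9-fold lower against a floor of 3 reads over the Dex+LPS group. Kcna3 stood at -4.72 without Dex+LPS replicate 2. The kinase receptor Kit, the tested member of the mast cell list, was at -5.21, and at -5.94 without the same replicate.

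Primary LPS response genes, which need no new protein synthesis, and secondary ones, which do, both fell in most tested members. Of 34 tested primary genes 30 fell (88.2%) and 1 rose (2.94%), and of 29 tested secondary genes 23 fell (79.3%) and 4 rose (13.8%). Over all tested genes 25.2% fell and 23.4% rose. The medians were -0.97 for the primary and -1.67 for the secondary list on the log2 scale, against -0.0066 for all tested genes. As a share of the signal the primary list took 2.38% ± 0.0821 with Dex+LPS and 5.23% ± 0.109 with LPS, whereas the secondary list took more with Dex+LPS, 2.66% ± 0.20, than with LPS, 2.30% ± 0.0790 (SD, n = 4 and 3; exact two-sided permutation p = 0.0286 for the primary and 0.0571 for the secondary list). The total behind these shares was 3.35 M normalised reads lower per library with Dex+LPS, so a larger share need not mean more reads. Saa3 weighed heavily in the secondary share, at 162492 with Dex+LPS and 73138 with LPS. The risers of the secondary list were Csf3, Lcn2, Saa3 and Hp, of which the last 3 encode acute-phase proteins. Lcn2, an iron-sequestering protein, had 11868, 13609.9, 10735 and 11236 normalised reads with Dex+LPS, against 1662, 1754 and 1812 with LPS, and 5.06 ± 4.14 with vehicle. Hp, which encodes the haemoglobin-binding protein haptoglobin, had 1525, 1956, 1678 and 2095 with Dex+LPS, against 112, 141 and 163 with LPS. In both genes Dex+LPS stood above LPS without overlap, with log2 fold changes of 2.76 ± 0.34 for Lcn2 and 3.71 ± 0.16 for Hp (SE; limma adjusted p = 2.57e-06 for Lcn2 and 1.14e-12 for Hp).

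Genes for the uptake of dying cells were mixed as a list and changed sharply in single members. Of 39 tested genes of efferocytosis, complement and scavenging, 11 rose (28.2%) and 16 fell (41%), beside 23.4% and 25.2% over all tested genes. This split turns with plain library totals, where 17 rose and 10 fell. Mertk, the receptor kinase through which macrophages bind dying cells, had 1004, 818, 954 and 921 normalised reads with Dex+LPS, against 336, 325 and 345 with LPS, a log2 fold change of 1.46 ± 0.08 (SE; limma adjusted p = 2.41e-11). Axl, its relative, averaged 2210.5 ± 373 with Dex+LPS and 3873 ± 406 with LPS and had a log2 fold change of -0.82 (limma adjusted p = 1.88e-06). Havcr2, which encodes the phosphatidylserine receptor TIM-3, and Cd300lf, a lipid-binding receptor, had log2 fold changes of 2.06 and 1.69, whereas Cd300lb had one of -3.98 (limma adjusted p = 4.2e-11, 2.95e-05 and 0.000507). For Cd300lb the value was -2.94 without Dex+LPS replicate 3. Havcr2 averaged 198 ± 32.8 with Dex+LPS, 46.2 ± 5.97 with LPS and 661 ± 22.2 with vehicle, and so stayed below its vehicle level.

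Markers of alternative activation did not rise as a group: 5 of 23 tested genes rose (21.7%) and 13 fell (56.5%). Over all tested genes 23.4% rose and 25.2% fell, so the share of the list that rose was near that of all genes. With plain library totals 7 of the list rose and 12 fell. The mannose receptor gene Mrc1 averaged 2014 ± 119 normalised reads with Dex+LPS, 1483 ± 132 with LPS and 5342 ± 519 with vehicle. Ccl24, an attractant of eosinophils, averaged 1.48 ± 1.79 with Dex+LPS and 43.5 ± 4.02 with LPS (log2 fold change -4.49, limma adjusted p = 4.47e-06). Antigen presentation and costimulation genes fell in 13 of 21 tested members (61.9%) and rose in 2 (9.52%), Cd80 and Icosl. The costimulator Cd86 had 37.2, 27.8, 35.6 and 33.7 with Dex+LPS, against 275, 228 and 227 with LPS (log2 fold change -2.82 ± 0.12 SE, limma adjusted p = 8.09e-13), while Cd80, which binds the same receptors on T cells, averaged 304 ± 51.4 with Dex+LPS and 172 ± 8.53 with LPS (log2 fold change 0.81 ± 0.13 SE, limma adjusted p = 4.98e-05). The pair thus changed in opposite directions.

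Genes of macrophage identity were split, with 6 of 29 tested genes higher (20.7%) and 13 lower (44.8%), beside 23.4% and 25.2% over all tested genes. This split turns with plain library totals, where 10 rose and 7 fell. Cebpa, a myeloid transcription factor, had 891, 1196, 1034 and 1008 normalised reads with Dex+LPS, against 263, 248 and 286 with LPS, a log2 fold change of 1.95 ± 0.11 (SE; limma adjusted p = 1.15e-10). Maf, a further macrophage transcription factor, averaged 374 ± 32.5 with Dex+LPS and 1592 ± 59.1 with LPS (log2 fold change -2.09, limma adjusted p = 7.05e-14). Among 22 tested Krüppel-like, C/EBP and related factors 10 rose (45.5%) and 5 fell (22.7%), in the same numbers with plain library totals.

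Clock genes rose in 8 of 22 tested members (36.4%) and fell in 4 (18.2%), beside 23.4% and 25.2% over all tested genes. The repressor Per2 had 153, 127, 156 and 164 normalised reads with Dex+LPS, against 14.7, 10.4 and 13.9 with LPS, a log2 fold change of 3.44 ± 0.27 (SE; limma adjusted p = 5.61e-09). Cry1 and Cry2, its partners in repression, and Arntl, the activator they act on, had log2 fold changes of 1.04, 1.21 and 0.86. Nr1d1, which encodes the haem-binding repressor REV-ERBα, averaged 3.92 ± 3.91 with Dex+LPS and 17.0 ± 9.14 with LPS (log2 fold change -2.15, limma adjusted p = 0.00472, and -1.53 without Dex+LPS replicate 2), and its relative Nr1d2 had a log2 fold change of -0.91.

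Glycolysis and hypoxia genes fell in 21 of 26 tested members (80.8%) and rose in 2 (7.69%), beside 25.2% and 23.4% over all tested genes. The median log2 fold change of the list was -0.9, and with plain library totals 18 fell. The members that rose were Slc2a3, a glucose transporter, and Pfkfb3, the enzyme that makes the main activator of phosphofructokinase. Pfkfb3 had 13689, 10942, 13764 and 13732 normalised reads with Dex+LPS, against 3501, 3361 and 3669.8 with LPS, a log2 fold change of 1.89 ± 0.08 (SE; limma adjusted p = 6.3e-13). Hk2, the inducible hexokinase, averaged 559.9 ± 186 with Dex+LPS and 1859 ± 138 with LPS, and Slc16a3, the lactate exporter, 341 ± 48.0 with Dex+LPS and 1734 ± 248 with LPS; their log2 fold changes were -1.78 and -2.34 (limma adjusted p = 3.66e-08 and 5.74e-11). Of 26 tested nuclear genes of oxidative phosphorylation, 22 did not pass the test, 3 rose (11.5%) and 1 fell (3.85%). With plain library totals 18 of them rose and none fell.

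Lipid genes changed in single members. Fabp4, a fatty acid carrier, had 2566, 3482, 2593 and 2564 normalised reads with Dex+LPS, against 233, 347 and 331 with LPS, a log2 fold change of 3.21 ± 0.12 (SE; limma adjusted p = 1.57e-13). Scd2, a fatty acid desaturase, averaged 918 ± 68.3 with Dex+LPS and 138 ± 15.2 with LPS (log2 fold change 2.73, limma adjusted p = 2.43e-14). Ch25h, the LPS-induced cholesterol 25-hydroxylase, averaged 1.65 ± 0.564 with Dex+LPS and 65.8 ± 12.3 with LPS (log2 fold change -4.66, limma adjusted p = 8.34e-07). As lists, LXR targets and fatty acid genes gave 4 higher (13.3%) and 10 lower (33.3%) of 30 tested. Cholesterol synthesis gave 6 higher (25%) and 7 lower (29.2%) of 24, near the 23.4% and 25.2% over all tested genes. With plain library totals the counts became 9 and 7 for the first list and 14 and 5 for the second. Dhcr7, an enzyme of the final steps of cholesterol synthesis, had a log2 fold change of 1.67 (limma adjusted p = 1.26e-05).

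Cell cycle genes rose in 30 of 44 tested members (68.2%) and fell in 4 (9.09%), beside 23.4% and 25.2% over all tested genes. The median log2 fold change of the list was 0.81, and with plain library totals 35 rose and again 4 fell. Ccne2, a cyclin of S phase entry, had 22.7, 24.6, 18.3 and 14.5 normalised reads with Dex+LPS, against 10.1, 0 and 2.14 with LPS, a log2 fold change of 2.66 ± 0.61 (SE; limma adjusted p = 0.00149), and of 3.54 and 1.80 without LPS replicates 1 and 2. Top2a, a topoisomerase of dividing cells, averaged 898 ± 67.9 with Dex+LPS, 467 ± 74.5 with LPS and 1357 ± 44.7 with vehicle. The 4 that fell were Ccnd2, Ccne1, Mki67 and the cell cycle inhibitor Cdkn1a, and Mki67 stood higher with LPS than with vehicle, at 3836 ± 406 with Dex+LPS, 6932 ± 666 with LPS and 1344 ± 133 with vehicle. Cdkn1a weighed most in the list, at 19883 ± 1092 with Dex+LPS and 57889 ± 1884 with LPS, and the list as a whole took less of the signal with Dex+LPS, 0.237% ± 0.00608, than with LPS, 0.422% ± 0.00896 (SD, n = 4 and 3), although most of its members rose. Ccnd2 had 234, 130.4, 166 and 200.5 with Dex+LPS, against 3139.8, 2591 and 2979 with LPS (log2 fold change -4.01 ± 0.16 SE, limma adjusted p = 6.12e-13).

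Growth factor, insulin and FoxO genes rose in 13 (46.4%) and fell in 10 (35.7%) of 28 tested members, beside 23.4% and 25.2% over all tested genes. Foxo1, a transcription factor that insulin signalling keeps out of the nucleus, averaged 200.5 ± 14.3 normalised reads with Dex+LPS and 85.3 ± 10.3 with LPS (log2 fold change 1.23, limma adjusted p = 2.63e-09). Of 17 tested p53 targets 3 rose (17.6%) and 7 fell (41.2%), and this turns with plain library totals, where 9 rose and 5 fell. Trp53inp1 averaged 431 ± 61.0 with Dex+LPS and 57.6 ± 8.96 with LPS (log2 fold change 2.88, limma adjusted p = 1.12e-12), and Gdf15, a stress cytokine, 429 ± 128 with Dex+LPS and 1667 ± 480.1 with LPS (log2 fold change -1.96, limma adjusted p = 9.83e-06). In the unfolded protein response 8 of 22 tested genes rose (36.4%) and 2 fell (9.09%).

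The same treatment was tested in cells with Brg1 siRNA, and the 2 responses share no library, so their difference could be tested directly. The log2 Dex response was more positive with control siRNA than with Brg1 siRNA in 147 of 12061 genes (1.22%) and more negative in 332 (2.75%), 3.97% in all, at a limma adjusted p under 0.05. Of the 332, 263 were genes called lower with control siRNA, and of the 147, 119 were genes called higher with it. Among 51 tested interferon-stimulated genes the response was more negative with control siRNA in 40 and more positive in none. Their median log2 response was -1.88 with control siRNA and -1.21 with Brg1 siRNA. The labels number 1 library in each of these 4 groups in a separate, higher run; without those libraries the more negative response was called in 22 genes of the list and in 206 genes over all. For Rsad2 the response was -4.18 with control siRNA and -2.64 with Brg1 siRNA, a difference of -1.54 ± 0.17 (SE; limma adjusted p = 3.97e-05).

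**Figure D4:**
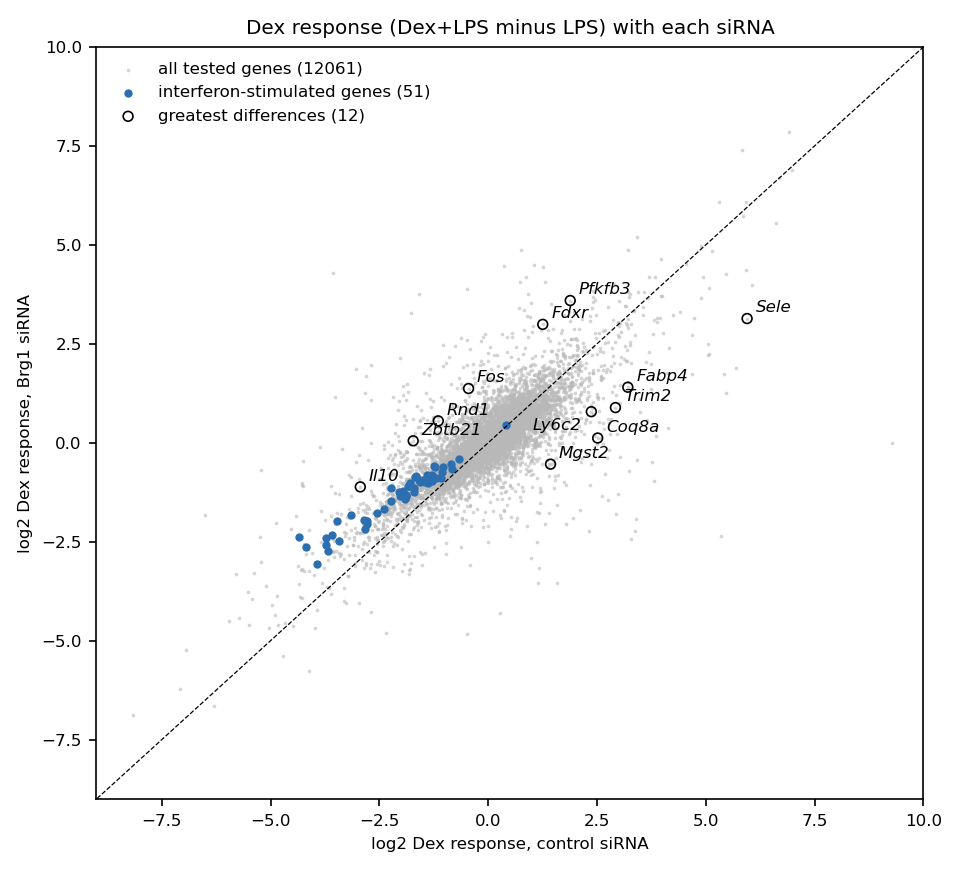
Log2 Dex response (Dex+LPS minus LPS) of 12061 tested genes with control siRNA (horizontal axis) and with Brg1 siRNA (vertical axis); the dashed line marks equal responses. Blue points are the 51 tested interferon-stimulated genes, 40 of which had a more negative response with control siRNA at limma's adjusted p of 0.05, and black outlines mark the 12 genes named for the greatest differences.

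Among the genes that passed the test and the rule for naming, Il10 had the most negative difference. With control siRNA it averaged 38.2 ± 7.92 normalised reads with Dex+LPS and 295 ± 11.8 with LPS, and with Brg1 siRNA 37.8 ± 4.73 with Dex+LPS and 83.0 ± 11.3 with LPS. The response was thus -2.94 with control siRNA and -1.11 with Brg1 siRNA, a difference of -1.82 ± 0.25 (SE; limma adjusted p = 0.000387). Fos, an AP-1 subunit, Zbtb21, Fdxr, Pfkfb3 and the small GTPase gene Rnd1 followed in this direction with differences of -1.82 ± 0.23, -1.77 ± 0.41, -1.74 ± 0.41, -1.71 ± 0.11 and -1.70 ± 0.20 (limma adjusted p = 0.000179, 0.019, 0.0194, 5.18e-08 and 8.98e-05). Pfkfb3 rose with both siRNAs and by less with control siRNA, at 1.89 with control siRNA and 3.59 with Brg1 siRNA. Fdxr had responses of 1.26 with control siRNA and 2.99 with Brg1 siRNA. The sign differed for Fos, at -0.45 with control siRNA and 1.37 with Brg1 siRNA, and for Rnd1, at -1.15 with control siRNA and 0.55 with Brg1 siRNA.

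In the opposite direction stood Sele, which encodes the adhesion molecule E-selectin. With control siRNA it averaged 150.2 ± 8.48 normalised reads with Dex+LPS and 1.91 ± 1.76 with LPS, and with Brg1 siRNA 257 ± 25.2 with Dex+LPS and 28.3 ± 3.78 with LPS, a difference in response of 2.81 ± 0.49 (SE; limma adjusted p = 0.00231), and of 2.17 without LPS replicate 3. Coq8a, Trim2, Mgst2, Fabp4 and Ly6c2 had differences of 2.40 ± 0.47, 2.04 ± 0.48, 1.97 ± 0.34, 1.80 ± 0.17 and 1.58 ± 0.44 (limma adjusted p = 0.00563, 0.02, 0.00239, 5.46e-06 and 0.0496), and for Ly6c2 the call was lost in 16 of 26 alternatives and 23.7% of its 31-base words are shared with other genes. The cytokines differed in their response: Tnf had -0.88 with control siRNA and -1.26 with Brg1 siRNA, a difference of 0.39 ± 0.07 (limma adjusted p = 0.00544), while Il1b had -4.28 with control siRNA and -3.93 with Brg1 siRNA and did not pass the test (difference -0.35 ± 0.27, limma adjusted p = 0.59).

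Of 34 tested glucocorticoid-induced genes, 3 were higher and 2 lower in the difference, beside 1.22% and 2.75% of all tested genes, and the other 29 did not pass the test. Fkbp5 responded by 5.31 with control siRNA and 6.09 with Brg1 siRNA (difference -0.77 ± 0.23, limma adjusted p = 0.0772), and Per1 by 3.28 with control siRNA and 2.99 with Brg1 siRNA (difference 0.29 ± 0.19, limma adjusted p = 0.521). Mertk was among those that did differ, with 1.46 with control siRNA and 1.86 with Brg1 siRNA (difference -0.41 ± 0.11, limma adjusted p = 0.0423, a call lost in 14 of 26 alternatives), as was Tsc22d3, with 6.61 with control siRNA and 5.56 with Brg1 siRNA (difference 1.05 ± 0.16, limma adjusted p = 0.000966). A difference that missed the threshold does not show that the responses were alike.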

How the data were processed

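RNA was sequenced from 20 macrophage samples, 7 of which enter the Dex comparison (4 Dex+LPS, 3 LPS, control siRNA). The authors deposited 1 table of 17787 genes with a normalized signal per library and their own log2 fold changes with standard errors (a score per gene) and p-values. Salmon 1.4.0, R 4.1.0, DESeq and DESeq2 are listed in the submitters' processing notes, beside the builds mm10 and GRCm38.p6. The deposited signal behaves as gene counts over a library-wise size factor: 99.9505% of values were whole reads to within 0.01 once the factor was undone, and recomputed factors differed by at most 0.0927%. The library kit is named as stranded and rRNA depletion is also named; the counted strand is not given in the sources used here.

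Values were log2-transformed after adding 1, which understates the changes of low genes, and tested with limma's trended variance (version 3.58.1 under R 4.3.3) with all 6 groups in 1 fit. Genes reaching 10 normalized counts in 3 or more samples entered (12061), with Benjamini-Hochberg adjustment over all of them. edgeR 4.0.16 and DESeq2 1.42.0 on the recovered counts, TMM factors, plain library totals, pseudocounts of 0.5 and 10, no filter and a filter at 50, the compared groups alone, the replicate number as a block, the library number series as a term, the fit without the higher series, and each library left out were alternatives. The fitting was tested on simulated counts. The members, gene lists and rules were chosen with earlier results of these data known. Lists overlap, so a gene can count in several. Genes named were the 12 highest and 12 lowest log2 fold changes with adjusted p under 0.05, a mean of at least 50 in the higher group, groups that do not overlap and a spread of at most 5 times within it; up to 5 called genes of each of 40 lists; 24 genes always named; and the 6 highest and 6 lowest differences between siRNAs. Some genes under these rules are not reported here. Other genes named, such as those in counts of 5 or fewer, were chosen after their values were seen. Shared sequence is the share of 31-base words of a gene's GENCODE transcripts found in other genes. Intervals and floors cover counting error only. Permutation tests used scipy. Promoter sequences came from RefSeq, and at most 8 stretches were to be printed by the rule.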

Additional observations from a re-analysis of the deposited data

Results flagged for a closer look

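The difference of the log2 Dex response, control siRNA minus Brg1 siRNA, passed limma's adjusted p of 0.05 in the following named genes. More negative responses with control siRNA among interferon-stimulated genes were those of Rsad2 at -1.54, Cxcl10 at -1.51, Ifit2 at -1.32, Ifit1 at -1.10, Cmpk2 at -0.86, Isg15 at -0.56 and Stat2 at -0.56. Among cytokine, prostaglandin and signalling genes the more negative differences were those of Il10 at -1.82, Fos at -1.82, Il1rn at -1.57, Ccl7 at -1.48, Ptgs2 at -1.02, Zfp36l1 at -0.96, Tlr4 at -0.79, Cd86 at -0.65, Ccl2 at -0.63, Pla2g4a at -0.52 and Atf3 at -0.52. Further genes with a more negative difference were Zbtb21 at -1.77, Fdxr at -1.74, Pfkfb3 at -1.71, Rnd1 at -1.70, Mt2 at -1.65, B3gnt7 at -1.48, Mmp13 at -1.31, Serpinb2 at -0.89, Slc39a8 at -0.79, Slc16a3 at -0.78 and Mertk at -0.41. A more negative difference is a stronger fall in some genes, such as Rsad2 and Il10, and a smaller rise in others, such as Fdxr, Pfkfb3 and Mertk. More positive responses with control siRNA were those of Icosl at 0.27, Csf1r at 0.32, Ncf1 at 0.37, Tnf at 0.39, Lyz2 at 0.42, Tlr13 at 0.49, Scd2 at 0.87, Trp53inp1 at 0.87, Klf4 at 0.88, Havcr2 at 0.99, Tsc22d3 at 1.05, Csf3 at 1.15, Susd2 at 1.2, Ly6c2 at 1.58, Fabp4 at 1.80, Mgst2 at 1.97, Trim2 at 2.04, Coq8a at 2.40 and Sele at 2.81. St3gal1 had a difference of 9.28, which rests on uneven Dex+LPS values against 0 in the LPS libraries and depends on the pseudocount. Several of these calls depend on the processing. Of 26 alternatives, the call was lost for B3gnt7 (in 17), Csf3 (in 17), Ly6c2 (in 16), Serpinb2 (in 16), Ccl2 (in 15), Icosl (in 14), Mertk (in 14), Csf1r (in 11) and Cd86 (in 9), and in 1 to 5 for Lyz2, Slc16a3, Trim2, Fdxr, Tlr13, Atf3, St3gal1, Susd2, Zbtb21, Zfp36l1, Coq8a, Isg15, Pla2g4a, Stat2, Tlr4 and Trp53inp1. Sele stood at 2.17 without LPS replicate 3 and St3gal1 at 8.68 without Dex+LPS replicate 2. 

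Among the 4 Dex+LPS libraries 1 stood far from the others in 7 of 149 named genes, by a gap on the log2 scale that passes Dixon's test at the 95% level; chance alone flags about 1 in 20. Ccl5 had 28366 normalised reads in replicate 2, with the others between 20548 and 21703, a gap of 0.83 of the range. Fabp4 had 3482 normalised reads in replicate 2, with the others between 2564 and 2593, a gap of 0.963 of the range. Pfkfb3 had 10942 normalised reads in replicate 2, with the others between 13689 and 13764, a gap of 0.976 of the range. Cdkn1a had 21518 normalised reads in replicate 2, with the others between 19265 and 19436, a gap of 0.92 of the range. Errfi1 had 61 normalised reads in replicate 1, with the others between 83 and 87, a gap of 0.895 of the range. Mrc1 had 2191 normalised reads in replicate 3, with the others between 1935 and 1974, a gap of 0.84 of the range. Saa3 had 202114 normalised reads in replicate 2, with the others between 148011 and 151078, a gap of 0.934 of the range.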

How the results depend on the processing

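Of 149 genes named in the text above for the Dex response with control siRNA, 142 kept their direction and their side of limma's threshold in every alternative run for them (17 to 19 a gene), 6 lost the call in at least 1 (Hmox1 in 8, Fos in 6, Lyz2 and Pias1 in 3, Nr3c1 and Slc2a3 in 1) and Cxcl1 gained it. Genes that met the naming rules but were left out of the text are not in this count. Among them, Zfp821 lost the call in 8 of 19 alternatives, Dgkh in 2 of 19 and Tlr5 in 1 of 17. The counts of 2827 higher and 3041 lower genes stayed within 1.5 times in every alternative other than plain library totals (5269 and 1647). They ran from 2485 to 2798 higher and from 2726 to 3075 lower with 1 library left out, and were 3146 and 2694 with edgeR, 3163 and 2733 with TMM factors and 2567 and 2863 without the higher number series. The difference between siRNAs was less stable: 37 of 66 named genes kept their side in all 26 alternatives and 25 lost the call in at least 1, 7 of them in 14 to 17. Its counts of 147 and 332 became 87 higher with the compared groups alone, 257 higher with DESeq2, 270 higher with the number series as a term, and 94 higher and 206 lower without the higher series, and with 1 library left out they ran from 110 to 169 and from 236 to 347; the cause was not tested. Replicate numbers were tried as a block: the replicate block gave 2849 higher and 3219 lower genes and 188 and 382 for the difference. Same-numbered control siRNA libraries correlated at 0.0077, -0.0216 and -0.125, and none of these 3 Dex+LPS libraries correlated best with its own number. The libraries of the higher number series correlated at 0.26 with control siRNA and 0.239 with Brg1 siRNA. Depth limits the genes with 0 to 3 reads in a group, whose ratios carry the intervals given above.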
